A study of Mus musculus with 4 samples.

Results

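The expression of 10 genes that make or break down ceramide was examined in mouse pancreas: Sptlc1 and Sptlc2, Cers2, Cers5 and Cers6, Degs1, Asah1, Acer2 and Acer3, and Smpd1. They were taken by symbol from a deposited count table of 55401 Ensembl genes, and each of the 10 symbols matched 1 gene. The set holds ceramide synthases, ceramidases and 1 sphingomyelinase, and also the subunits of serine palmitoyltransferase and a desaturase, which the family names do not cover. RNA-seq was done on tissue beside Panc02 tumours, Panc02 being a mouse line of pancreatic ductal adenocarcinoma. The libraries were CRFR1-KO 1 and CRFR1-KO 2, from mice with a conditional knockout of CRFR1, and WT 1 and WT 2, from wild-type mice. CRFR1 is the receptor for the stress peptide corticotropin-releasing factor, and the series title places it in mast cells and names MAPK and the sphingosine kinase SPHK1. The sources used here do not state the Cre driver, the strain, age and sex of the mice, or whether libraries came from separate animals. The spread behind each p-value is that between libraries, in part drawn from other genes, and may be technical.

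Ceramide is the hub of sphingolipid metabolism. Serine palmitoyltransferase starts its synthesis from serine and palmitoyl-CoA. A ceramide synthase then adds a fatty acid, and a desaturase turns the dihydroceramide into ceramide. Ceramide is also released from sphingomyelin by sphingomyelinases. Ceramidases cut it into a fatty acid and sphingosine, which the sphingosine kinases phosphorylate. In cells generally, ceramide is tied to growth arrest and cell death, and phosphorylated sphingosine to survival and signalling between cells.

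None of the 10 genes passed the test between genotypes. Acer2 and Acer3, which encode alkaline ceramidases, showed the largest differences among the 10, with mean levels of 1.64 and 1.66 CPM in CRFR1-KO against 2.69 and 2.72 CPM in WT. The 6 synthesis genes had log2 fold changes between -0.17 and 0.23. Levels are CPM, counts scaled to a common library size, on library sizes scaled by the trimmed mean of M values (TMM). Differences are log2 fold changes, CRFR1-KO over WT, from edgeR's quasi-likelihood test with Benjamini-Hochberg adjustment over the 15131 genes tested. All 10 genes passed the filter on low counts and were tested. Of the 10, 0 passed an adjusted p of 0.05, against 0.0264% of all genes tested, and 0 had an unadjusted p under 0.05, against 4.86% of all genes. DESeq2 and limma-voom also called 0 of the 10, adjusted or at an unadjusted p under 0.05. The values were higher for 5 genes and lower for 5, or 50.0% lower, against 50.8% of all genes. Their median log2 fold change was 0.02, against -0.01 over all genes tested. The groups did not overlap for 3 of the 10 genes, or 30.0%, against 33.5% of all genes. This share was near the background.

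**Figure D1:**
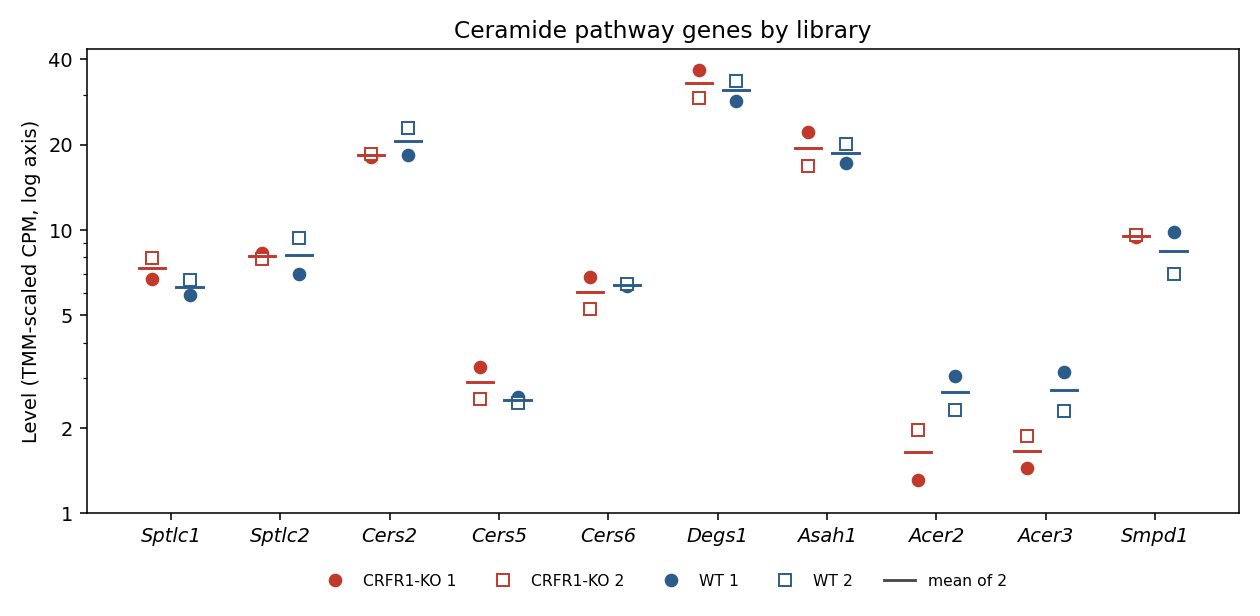
Level of each gene in each library, in TMM-scaled CPM on a log axis; red symbols are the 2 CRFR1-KO libraries, blue symbols the 2 WT libraries, and bars the mean of each group. Acer2 and Acer3 lie between 1.31 and 1.97 CPM in CRFR1-KO and between 2.29 and 3.15 CPM in WT, while most other genes have overlapping groups.

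The tissue carried the markers of exocrine pancreas. A list of 12 acinar genes summed to between 370305 and 417018 CPM in CRFR1-KO and between 304709 and 384613 CPM in WT. Libraries held between 63495457 and 71203640 counts. Crhr1, which encodes CRFR1, had 0 counts in all 4, so the knockout could not be checked from it. Of 8 mast cell markers, 5 were at 0 in every library, among them Cma1, Mcpt4 and Tpsb2, and the list summed to 14.5 and 10.8 CPM in CRFR1-KO and 11.8 and 14.0 CPM in WT, most of it Kit. WT 1 stood apart, with the lowest acinar sum and the highest fibroblast sum. Its islet sum was 41.5 CPM, against 239 to 297 CPM in the other 3 libraries.

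Sptlc1 and Sptlc2 encode the paired subunits of serine palmitoyltransferase, Sptlc2 carrying the catalytic lysine. Sptlc1 (ENSMUSG00000021468; chromosome 13, 53332748 to 53377397, minus strand, GRCm38 in GENCODE M21) had 6.70 and 7.96 CPM in CRFR1-KO, against 5.88 and 6.66 CPM in WT. Both CRFR1-KO values lay above both WT values, but the gap between CRFR1-KO 1 and WT 2 was 6.70 against 6.66 CPM. It was the sole member with non-overlapping groups on the higher side, a pattern shared by 16.6% of all genes, and its groups overlapped when scaled by DESeq2 size factors. The log2 fold change of Sptlc1 was 0.23 (SE 0.20, 95% interval -0.23 to 0.69), and with a library left out it ranged from 0.11 without CRFR1-KO 2 to 0.35 without CRFR1-KO 1.

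Sptlc2 (ENSMUSG00000021036; chromosome 12, 87305058 to 87388355, minus strand) had 8.27 and 7.90 CPM in CRFR1-KO, against 6.98 and 9.40 CPM in WT. The CRFR1-KO libraries lay inside the range of the WT libraries, and the log2 fold change was -0.02 (SE 0.21, 95% interval -0.50 to 0.47). Sptlc3, a further large subunit, was at 0 counts in every library, which allows up to between 0.0363 and 0.0480 CPM at a floor of 3 counts per library.

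The ceramide synthases differ in the length of the fatty acid they attach. Cers2 uses very long chains, whereas Cers5 and Cers6 use palmitoyl-length chains. Cers2 (ENSMUSG00000015714; chromosome 3, 95314791 to 95323599, plus strand) had 18.2 and 18.6 CPM in CRFR1-KO, against 18.4 and 23.0 CPM in WT. WT 2 was high and the other 3 libraries were nearly level, which gave a log2 fold change of -0.17 (SE 0.18) and 0.0021 without WT 2. Exons of Cers2 overlap Setdb1 and 6330562C20Rik on the opposite strand. The libraries were stranded by their protocol, but the strand setting of the counting was not stated, so reads of these genes may not be told apart. Setdb1, a histone methyltransferase gene, had 11.5 and 12.8 CPM in CRFR1-KO and 10.2 and 8.65 CPM in WT.

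Cers5 (ENSMUSG00000023021; chromosome 15, 99734881 to 99772885, minus strand) had 3.30 and 2.54 CPM in CRFR1-KO, against 2.58 and 2.46 CPM in WT. CRFR1-KO 1 was high and the groups overlapped. The log2 fold change was 0.21 (SE 0.28), and 0.01 without CRFR1-KO 1. Cers6 (ENSMUSG00000027035; chromosome 2, 68861441 to 69114282, plus strand) had 6.80 and 5.25 CPM in CRFR1-KO, against 6.35 and 6.43 CPM in WT. Here the WT libraries were nearly equal and lay between the CRFR1-KO libraries, with a log2 fold change of -0.08 (SE 0.21). Cers5 and Cers6 were both higher in CRFR1-KO 1 than in CRFR1-KO 2, by 0.38 and 0.37 on the log2 scale. This was not particular to them, as Asah1 and Degs1 were also higher there, by 0.40 and 0.33. Cers2, Sptlc1, Acer2, Acer3 and Smpd1 were higher in CRFR1-KO 2.

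Degs1, the desaturase that completes ceramide synthesis, had the highest level of the 10 per kilobase of exon (ENSMUSG00000038633; chromosome 1, 182275772 to 182282804, minus strand). It had 36.7 and 29.3 CPM in CRFR1-KO, against 28.5 and 33.7 CPM in WT. The groups overlapped, and the log2 fold change was 0.09 (SE 0.19, 95% interval -0.37 to 0.54), or -0.04 on library totals.

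In the 250 bases before a RefSeq start (GRCm38.p6), the E-box CACGTG, which reads the same on both strands, was found for Cers2, Cers6 and Degs1. The RefSeq table has 11 such windows for 9 of the members, and 3 of the 11 held an E-box, against 6.0% of all 32851 windows. In the windows of Cers2, Cers6 and Degs1 that held it, G and C made up 74.8, 70.4 and 69.6%. The median over all windows was 52.4%, and the 6.0% was not matched for G and C. These lines show each site with 12 bases on either side, 5′ to 3′ on the gene's strand, with the E-box in capitals. They are shown because the same letters stand before a RefSeq start of 2 of the 3 synthase genes and of the desaturase gene, at 129 bases for Cers2, 22 for Cers6 and 43 for Degs1.
Cers2: cgccctgcggggCACGTGccacccgccccg
Cers6: cggccaggctgcCACGTGacaggcgaggcg
Degs1: gggagcctcaatCACGTGgtccagtcagct
The stretches are chr3:95315049-95315078 on the plus strand for Cers2, chr2:68861407-68861436 on the plus strand for Cers6 and chr1:182282221-182282250 on the minus strand for Degs1. For Cers6 the RefSeq start is also the start of the gene in GENCODE. For Cers2 and Degs1 it lies 399 and 609 bases inside the GENCODE gene, so these sites are within the gene positions given above, and the Cers2 site also falls in an exon of 6330562C20Rik on the opposite strand. The window of the other RefSeq start of Cers2 held 0 E-boxes. A match of letters is a description and not evidence of binding, and Asah1 is not in the table.

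Ceramidases are told apart by the pH at which they work and by their compartment. Asah1, the acid ceramidase of lysosomes (ENSMUSG00000031591; chromosome 8, 41340197 to 41374773, minus strand), had 22.2 and 16.8 CPM in CRFR1-KO, against 17.2 and 20.2 CPM in WT. Both WT libraries lay between the CRFR1-KO libraries, and the log2 fold change was 0.06 (SE 0.20, 95% interval -0.41 to 0.52), or -0.07 on library totals.

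Acer2, the Golgi alkaline ceramidase (ENSMUSG00000038007; chromosome 4, 86874396 to 86934822, plus strand), had 82 and 129 counts in CRFR1-KO, against 252 and 152 counts in WT. On the scaled level these were 1.31 and 1.97 CPM in CRFR1-KO and 3.05 and 2.32 CPM in WT, or 1.64 ± 0.47 against 2.69 ± 0.51 CPM (SD, n = 2 libraries each). CRFR1-KO 1 was lowest and WT 1 highest, and the groups did not overlap. The log2 fold change was -0.71 (SE 0.34, 95% interval -1.52 to 0.10). The adjusted p in edgeR's test was 1.0. Counting error alone gave the CRFR1-KO 1 count of Acer2 an exact 95% Poisson interval of 65.2 to 102 and the WT 1 count one of 222 to 285. The intervals of CRFR1-KO 2, 108 to 153, and of WT 2, 129 to 178, overlapped. All of these are on raw counts, before library sizes were scaled.

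Acer3, the alkaline ceramidase of the endoplasmic reticulum and Golgi (ENSMUSG00000030760; chromosome 7, 98206389 to 98321208, minus strand), had 90 and 123 counts in CRFR1-KO, against 260 and 150 counts in WT. These were 1.44 and 1.88 CPM in CRFR1-KO and 3.15 and 2.29 CPM in WT, or 1.66 ± 0.31 against 2.72 ± 0.60 CPM (SD, n = 2 libraries each). The order of the libraries was that of Acer2, again without overlap. The log2 fold change was -0.71 (SE 0.33, 95% interval -1.48 to 0.06). The adjusted p in edgeR's test was 1.0, as for Acer2. These were the 2 members with non-overlapping groups on the lower side, which 16.9% of all genes had. With each library left out in turn, Acer2 ranged from -1.02 without CRFR1-KO 2 to -0.45 without CRFR1-KO 1. Acer3 ranged from -0.92 without WT 2 to -0.46 without WT 1. Both stayed below 0 in each of these 4 fits, which groups that do not overlap largely fix in advance. Acer3's longest transcript also holds stretches of 217 to 1691 bases at least 95% identical to transcripts of 25 other genes, where reads may be shared. No such stretch of at least 200 bases was found for the other 9 members.

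**Figure D2:**
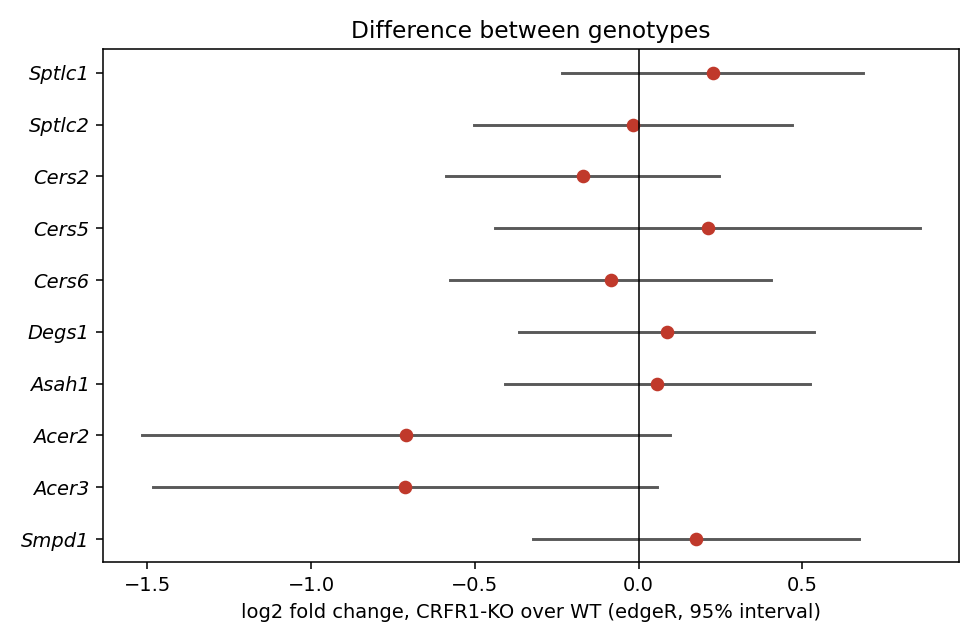
Log2 fold change of each gene, CRFR1-KO over WT, from edgeR, with bars for the 95% interval. Every interval includes 0; those of Acer2 and Acer3 centre on -0.71 and end at 0.10 and 0.06.

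For the other 8 members the 95% interval of the fold lay inside 0.5 to 2, reaching at its widest from 0.665 for Cers2 to 1.81 for Cers5. The intervals of Acer2 and Acer3 began at folds of 0.35 and 0.358 and ended at 1.07 and 1.04.

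**Figure D3:**
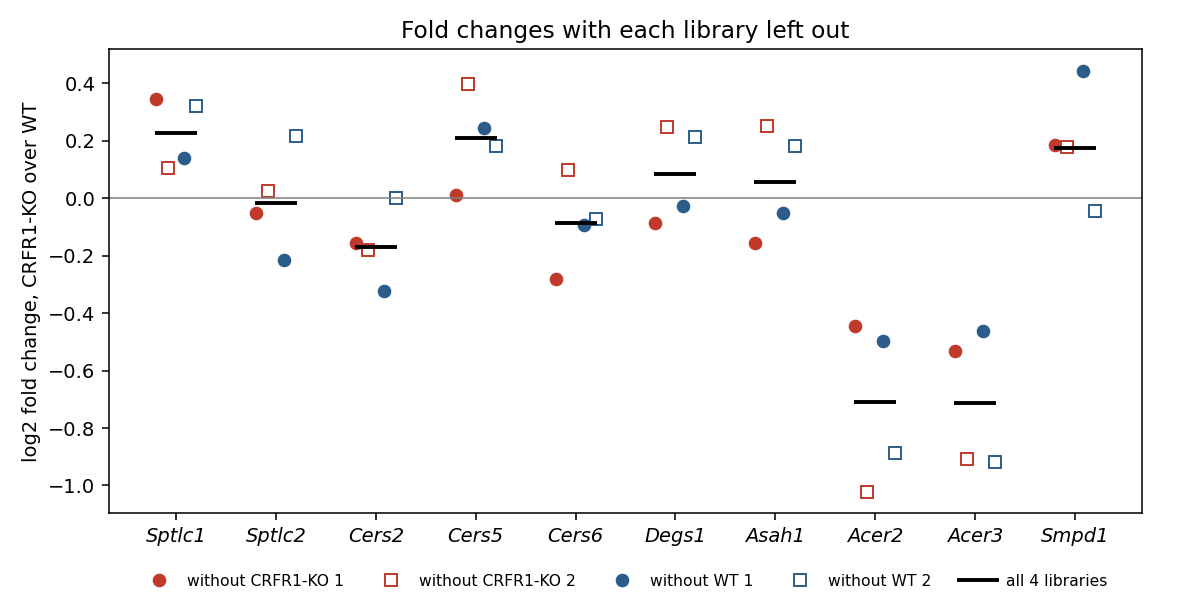
Log2 fold change of each gene with all 4 libraries (black bar) and with each library left out in turn (red, a CRFR1-KO library left out; blue, a WT library left out). Acer2 and Acer3 stay between -1.02 and -0.45, Sptlc1 and Cers5 stay above 0, and the other 6 fall on both sides of 0.

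Marker sums of fibroblasts, macrophages and ducts had the same order of libraries as the alkaline ceramidases. The share of all genes with this order is not given here, so how common it was is not known. The summed level of 10 fibroblast and matrix markers was 173 and 198 CPM in CRFR1-KO, against 536 and 268 CPM in WT, and 10 of 10 were lower in CRFR1-KO. For 8 macrophage markers the sums were 42.8 and 68.5 CPM in CRFR1-KO, against 119 and 86.7 CPM in WT, with 8 of 8 lower. The sums of 7 duct markers were 81.5 and 84.2 CPM in CRFR1-KO, against 182 and 112 CPM in WT, with 5 of 7 lower. For these sums CRFR1-KO 1 was lowest, then CRFR1-KO 2, WT 2 and WT 1. Single markers did not all share this order. Of the fibroblast list, Col1a1, Col1a2, Col3a1, Lum and Pdgfrb had it, and Dcn, Pdgfra, Postn, Fn1 and Eln did not. Col1a1, Col1a2 and Col3a1 stood at 73.4, 96.1 and 207 CPM in WT 1. Dcn, Pdgfra and Eln were higher in WT 2 than in WT 1. Of the macrophage list, Adgre1, Cd14 and Mrc1 did not have the order. Of the duct list, only Spp1 had it. The 6 endothelial markers summed to 42.0 and 46.3 CPM in CRFR1-KO and 42.4 and 34.5 CPM in WT, and the 12 acinar markers were all higher in CRFR1-KO. Smooth muscle markers summed to 6.99 and 14.0 CPM in CRFR1-KO and 10.9 and 16.2 CPM in WT, with 4 of 4 tested lower, and tumour epithelium markers to 206 and 187 CPM in CRFR1-KO and 255 and 202 CPM in WT, with 5 of 6 lower. Neither sum had the library order of Acer2 and Acer3. Krt8, Krt18 and Muc1 made up most of the tumour epithelium sum, which therefore says little of the list's other genes. In WT 1, Lcn2 stood at 18.2 and Mki67 at 4.96 CPM. The other libraries lay between 0.24 and 1.28 CPM for Lcn2 and between 0.11 and 1.77 CPM for Mki67. Msln went the other way, being lowest in WT 1 at 0.27 CPM and highest in CRFR1-KO 1 at 1.90 CPM. The tumour content of the libraries was not tested. Of 8 islet markers 7 were higher in CRFR1-KO. Adipocyte markers summed to 8.14 and 9.81 CPM in CRFR1-KO and 9.96 and 13.7 CPM in WT. Lymphocyte markers summed to 0.46 and 1.04 CPM in CRFR1-KO and 1.02 and 1.44 CPM in WT. The adipocyte and lymphocyte sums did not have the order either. Of the markers in these lists 0 passed the adjusted threshold. In bulk tissue, fewer cells of a type and less RNA per cell cannot be told apart, and the part of these cells in the ceramidase values was not tested.

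**Figure D4:**
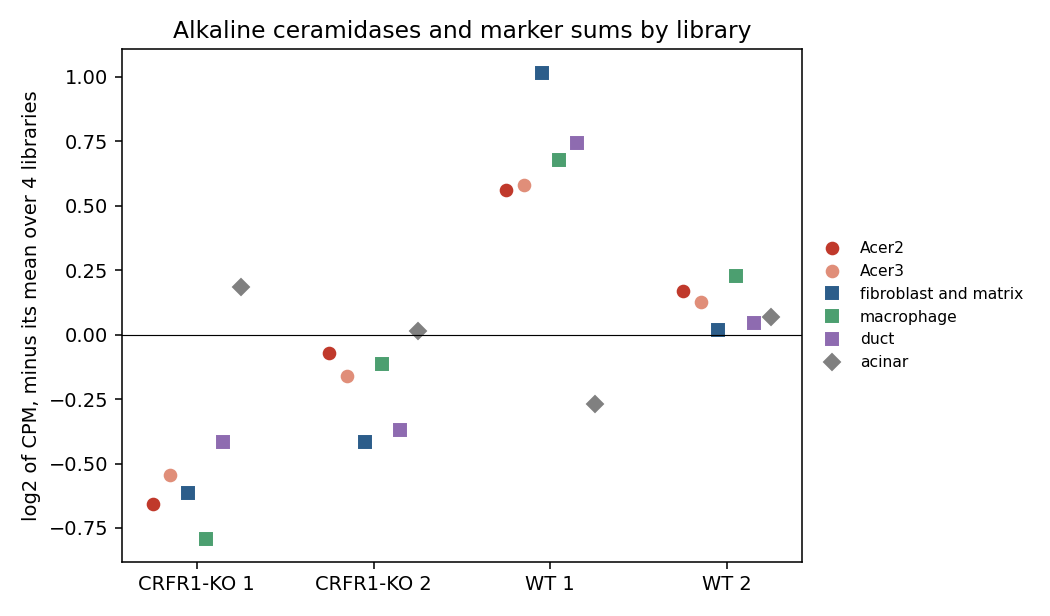
Log2 CPM of Acer2 and Acer3 (circles) and of the summed fibroblast, macrophage and duct markers (squares) and acinar markers (diamonds), each minus its mean over the 4 libraries. In CRFR1-KO 1 the first 5 lie between -0.79 and -0.42 and in WT 1 between 0.56 and 1.02, while the acinar sum is at 0.19 and -0.27 there. The remaining marker lists, whose sums did not have the library order of Acer2 and Acer3, are not drawn.

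The promoters of Acer2 and Acer3 are shown because these genes had the same order of libraries, as seen in these data. Any link between promoter and order was not tested. Each line gives 250 bases before a RefSeq start (GRCm38.p6), 5′ to 3′ on the gene's strand, with the GC box, GGGCGG or its reverse complement CCGCCC, in capitals. They are chr4:86874164-86874413 on the plus strand and chr7:98309543-98309792 on the minus strand.
Acer2: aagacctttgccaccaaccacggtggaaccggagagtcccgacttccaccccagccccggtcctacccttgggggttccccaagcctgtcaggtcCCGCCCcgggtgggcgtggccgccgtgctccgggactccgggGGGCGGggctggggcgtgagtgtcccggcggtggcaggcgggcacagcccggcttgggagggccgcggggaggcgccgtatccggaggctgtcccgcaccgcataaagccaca
Acer3: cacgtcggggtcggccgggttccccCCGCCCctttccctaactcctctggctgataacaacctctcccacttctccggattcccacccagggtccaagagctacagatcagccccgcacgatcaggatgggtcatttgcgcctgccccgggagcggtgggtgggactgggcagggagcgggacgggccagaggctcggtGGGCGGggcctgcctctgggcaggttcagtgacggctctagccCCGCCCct
The Acer2 window holds 2 GC boxes and the Acer3 window 3, and GC boxes stand in 7 of the 11 windows of the members, against 32.7% of all windows. The other members with a GC box were Cers2, Cers5, Smpd1, Sptlc1 and Sptlc2, which did not have that order of libraries. The CCAAT box, CCAAT or its reverse complement ATTGG, was the third motif searched and stands in 5 of the 11, against 33.8% of all windows. G and C made up 73.2% of the Acer2 window and 68.4% of the Acer3 window, against a median of 52.4% over all windows. The shares over all windows were not matched for G and C. The Acer3 window lies inside the gene as GENCODE draws it. Its other RefSeq start is 11666 bases further upstream, with 46.8% G and C and 0 GC boxes in its window.

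Smpd1 encodes acid sphingomyelinase, which releases ceramide from sphingomyelin in lysosomes and at the cell surface (ENSMUSG00000037049; chromosome 7, 105554360 to 105558389, plus strand). It had 9.46 and 9.58 CPM in CRFR1-KO, against 9.83 and 7.00 CPM in WT. WT 2 was low and the other 3 libraries lay together. The log2 fold change was 0.18 (SE 0.21), -0.04 without WT 2 and 0.44 without WT 1.

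Between genes, levels were compared as CPM per kilobase of exon (union of exons in GENCODE M21), as mean ± SD over the 4 libraries. Degs1 led with 12.4 ± 1.5 CPM per kilobase, and Acer3 was lowest with 0.143 ± 0.047, an 86.6-fold span. Asah1 at 5.63 ± 0.75 and Cers2 at 5.31 ± 0.63 CPM per kilobase could not be ordered. Each was the higher in 2 libraries, and Cers2 stood above Asah1, at 8.81 against 6.88, with the longest transcript as the length. Smpd1 followed at 2.69 ± 0.40, Sptlc1 at 1.91 ± 0.24 and Sptlc2 at 1.0 ± 0.12 CPM per kilobase. Sptlc1 was above Sptlc2 in 4 of 4 libraries. Cers5 and Cers6, at 0.767 ± 0.110 and 0.700 ± 0.075, overlapped, and Acer2 stood at 0.302 ± 0.101 CPM per kilobase.

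Within the ceramide synthase family Cers2 dominated. On the per-kilobase level it made up 67.8 and 73.5% of the 6 ceramide synthase genes in CRFR1-KO, and 71.8 and 76.0% in WT. Cers5 held 12.8 and 10.4% in CRFR1-KO and 10.4 and 8.45% in WT, and Cers6 held 10.5 and 8.61% in CRFR1-KO and 10.3 and 8.81% in WT. Cers4, a synthase using long chains, was the remaining member above 12 counts, at 5.83 to 8.68% over the libraries. The groups overlapped for Cers2, Cers5 and Cers6. Cers1 and Cers3 had between 0 and 12 counts per library. With the longest transcript as the length, Cers2 held a mean of 77.2% over the 4 libraries, in place of 72.3%.

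Among the 5 ceramidase genes, Asah1 held 82.3 and 77.2% in CRFR1-KO and 74.5 and 82.2% in WT. Asah2, the neutral ceramidase, held 14.2 and 16.5% in CRFR1-KO and 16.2 and 11.3% in WT. Acer2 accounted for 2.31 and 4.30% in CRFR1-KO, against 6.25 and 4.47% in WT, and Acer3 for 1.18 and 1.91% in CRFR1-KO, against 3.01 and 2.06% in WT. The shares of Acer2 and Acer3 did not overlap between the groups and lay lower in CRFR1-KO, CRFR1-KO 2 and WT 2 being close for both, and Acer1 was at 0 counts in all 4 libraries.

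**Figure D5:**
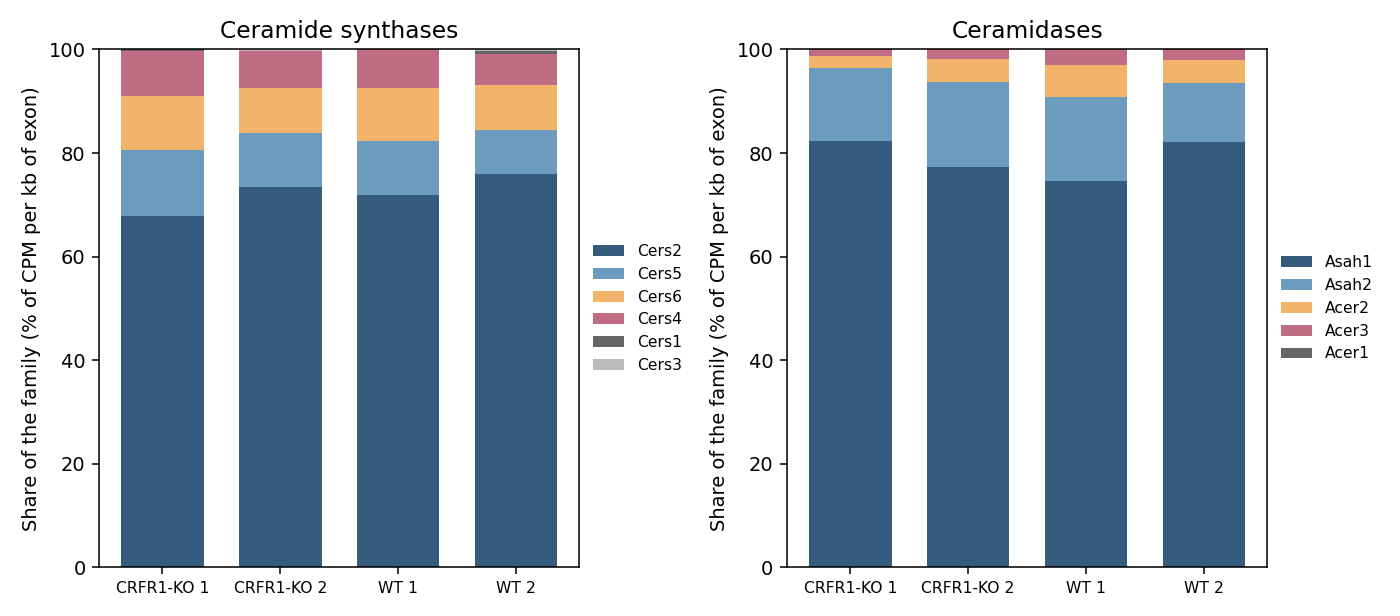
Share of each gene in the summed CPM per kilobase of its family, for ceramide synthases and ceramidases, in each CRFR1-KO and WT library. Cers2 holds 67.8 to 76.0% and Asah1 74.5 to 82.3% in every library, and Acer2 and Acer3 are thin bands.

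The 38 other genes listed for the ceramide and sphingosine pathway were described in the same way. Of the 31 tested, 12 were higher and 19 lower, or 61.3% lower, against 50.8% of all genes. Of the 31, 0 passed the adjusted threshold, and 2 had an unadjusted p under 0.05, both lower, against 4.86% of all genes. Their median log2 fold change was -0.11, and 10 had groups that did not overlap, or 32.3%, against 33.5% of all genes. Ugcg, which makes glucosylceramide from ceramide, had 4.10 and 4.0 CPM in CRFR1-KO, against 5.62 and 6.22 CPM in WT, with a log2 fold change of -0.55 (SE 0.20). Its adjusted p in edgeR's test was 1.0. Sphk1, the sphingosine kinase of the series title, had 1.98 and 2.23 CPM in CRFR1-KO, against 4.06 and 5.71 CPM in WT, with a log2 fold change of -1.21 (SE 0.27). Its adjusted p in edgeR's test was 0.682, and 0.109 by DESeq2.

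The other named genes of the list lay on both sides. Sgms2, a sphingomyelin synthase, had 29.8 and 24.1 CPM in CRFR1-KO and 19.6 and 23.3 CPM in WT (log2 fold change 0.33, SE 0.19). Ormdl3, which restrains serine palmitoyltransferase, had 26.4 and 26.2 CPM in CRFR1-KO and 22.4 and 22.6 CPM in WT (log2 fold change 0.22, SE 0.16). Its replicates were close together in both groups. Psap, the precursor of the saposins that assist lysosomal sphingolipid breakdown, had 54.4 and 62.1 CPM in CRFR1-KO and 72.5 and 83.6 CPM in WT (log2 fold change -0.42, SE 0.18). None of these passed the adjusted threshold. On the per-kilobase level Psap, at 24.8 CPM per kilobase, was the highest of the list's glycosphingolipid hydrolysis group, and above Degs1. The small subunit Sptssa stood at 12.1, the sphingomyelinase-like Smpdl3a at 17.7, Sgpp1, a sphingosine-1-phosphate phosphatase, at 3.91, Sgms2 at 3.88, Asah2 at 1.03 and Cers4 at 0.533 CPM per kilobase.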

How the data were processed

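The deposited table holds whole-number read counts per Ensembl gene for 4 libraries, made by the authors without normalization. Per the labels' protocols, RNA was captured on oligo(dT) beads and second strands were marked with dUTP. FastQC, edgeR and DESeq2 are named in the submitters' processing notes, without version or role. Not given in the sources used here are the aligner, counting program, strand setting, annotation and genome build. Counts of 4 were over-represented (912 genes in CRFR1-KO 1, against 356 with 3), so what a single count stands for is unsettled, and floors and Poisson intervals cover counting error only.

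Symbols, positions and exon lengths came from GENCODE M21 (GRCm38), which named 55141 of the 55401 identifiers. CRFR1-KO was tested against WT in R 4.3.3 with edgeR 4.0.16 (TMM scaling, default filterByExpr, a two-sided quasi-likelihood F test with genotype alone in the model), and the script was checked on simulated data. The SE was derived from the F statistic. Of the 7.1 degrees of freedom behind each member's p-value and interval, 5.1 were the prior that edgeR draws from all genes. Exact permutation of 2 against 2 libraries cannot go below p = 0.333, so none was run. No libraries were duplicates (chi-square per degree of freedom at least 40.9). Copies were sought with BLAST 2.17.0. The members and lists were chosen with earlier results of these data known. Named pathway genes were those at an unadjusted p under 0.05, the 2 smallest p in each direction, the highest per-kilobase level in each group of the list, and Sphk1. Alternatives included DESeq2 1.42.0, limma-voom (limma 3.58.1), other scalings and filters, summed exon-sharing models, counts divided by 4, a fit with the replicate number as a block, and each library left out in turn.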

Additional observations from a re-analysis of the deposited data

How the results depend on the processing

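Of the 10 members, 0 passed the adjusted threshold in the main test and in each alternative, including an adjusted threshold of 0.1. Without WT 2 the log2 fold changes of Acer2 and Acer3 were -0.89 and -0.92, with WT 1 as the lone WT library. In the main test and the alternatives that kept all 4 libraries, 0 members had an unadjusted p under 0.05. The count over all genes, 4 in the main test, was 58 by the DESeq2 Wald test, 0 by limma-voom (692 at an unadjusted p under 0.05), 0 with exon-sharing models summed (701), 7 with the replicate block and from 0 (536 unadjusted, without CRFR1-KO 2) to 69 (without WT 2) with a library left out. The titles give both genotypes replicates 1 and 2, but nothing says that equal numbers share an origin, and their deviations from the group means correlated at -0.07 across genes. The members' median log2 fold change was 0.02, became -0.10 on library totals, and ranged from -0.12 to 0.10 with a library left out. Library totals shifted the median of all genes by -0.13, and 10079 of the 15131 genes were then lower, against 7693. The number of members with non-overlapping groups ranged from 5 to 8 with a library left out, where a lone library is compared. A lone library overlaps less readily, so the 33.5% of all genes in the main comparison is no background for these counts. The share over all genes in those fits is not given here. On library totals the log2 fold change of Asah1 was -0.0703 and that of Degs1 was -0.0392, and that of Sptlc2 was 0.0101 in limma-voom. The cause was not tested. With a library left out, the log2 fold change ranged from -0.16 to 0.25 for Asah1, -0.0856 to 0.25 for Degs1, -0.32 to 0.0021 for Cers2, -0.28 to 0.10 for Cers6, -0.22 to 0.22 for Sptlc2 and -0.0432 to 0.44 for Smpd1, where the lone library is assumed to vary like the other group. Acer2, Acer3, Ugcg and Sphk1 stayed below 0, and Sptlc1, Cers5, Sgms2 and Ormdl3 above 0, in all 16 alternatives with a fold change. All but Cers5 had groups that did not overlap in the main fit, so their sign could hardly change. Ugcg, Sphk1, Sgms2 and Ormdl3 were also chosen by their p-values in these data. The constant sign is therefore not separate support for a difference.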

Other observations

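Ratios within a library do not depend on scaling. The log2 ratio of Acer2 to Acer3 CPM was -0.13 and 0.07 in CRFR1-KO and -0.05 and 0.02 in WT, so these genes kept nearly the same ratio while each varied over the libraries. Acer2 to Asah1 stood at -4.08 and -3.09 in CRFR1-KO and at -2.50 and -3.12 in WT, and these groups overlapped, since CRFR1-KO 2 lay just above WT 2. The summed per-kilobase level of the 6 synthesis genes over that of Asah1, Acer2 and Acer3 was 1.80 and 1.97 in CRFR1-KO and 1.81 and 1.88 in WT on the log2 scale.

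Among the 5 sphingomyelinase genes Smpd1 to Smpd5, Smpd1 held 55.6 and 53.4% of the summed CPM per kilobase in CRFR1-KO and 59.8 and 41.6% in WT. Smpd2, a neutral sphingomyelinase, held 28.2 and 32.1% in CRFR1-KO and 23.8 and 38.6% in WT. The WT libraries differed more from each other than the CRFR1-KO libraries did for both genes.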
